A study of Mus musculus with 16 samples.

Results

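The CD8 T cells described here were 59 of 7097 splenic droplets, 18 of 3179 in Main1 and 41 of 3918 in Main2. They were chosen by 3 antibody counts and 1 RNA count per droplet: a T-cell receptor (TCR) antibody count of at least 40, a CD4 antibody count under 23, a B220 antibody count under 100, and at least 1 unique molecular identifier (UMI, a count of distinct RNA molecules) over Cd8a and Cd8b1. Spleens of female BALB/cJ mice aged 9 months had been dissociated, cleared of red cells, stained with DNA-tagged antibodies and read by CITE-seq, which counts RNA and antibody tags in the same droplet. Its 16 labelled samples fall into RNA and antibody-tag groups of the sources Main1 and Main2, with 4 samples in each. The deposited tables keep only the source, so each source is treated as 1 library, and 2 libraries are all the replication there is. The design text speaks of 2 spleens, but no label ties a source to a spleen, so p-values do not measure a spread between animals. They set differences between groups of droplets against how far those differences vary between these 2 libraries only, a spread that the test largely shares across genes. All samples share strain, sex, age and tissue, and no treatment is named. The reference populations were the other 830 TCR-positive droplets (409 and 421) and 205 natural killer (NK) droplets (83 and 122), which had a TCR antibody count under 40 and at least 1 UMI of Ncr1, the gene of the NK receptor NKp46.

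CD8 T cells recognise peptides on MHC class I molecules through the T-cell receptor, and the CD8 coreceptor, a dimer of the Cd8a and Cd8b1 products, binds the same MHC molecule. Naive cells recirculate through lymphoid tissue using homing receptors such as that encoded by Ccr7, under the transcription factors Tcf7 and Lef1. After activation, memory cells carry more surface CD44 and express chemokine and killing genes such as Ccl5 and Nkg7, many of which NK cells also express.

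The droplets fitted their label by a measure the rule did not use, the CD8a antibody. Its counts ran from 47 to 691 in Main1 (median 180.5) and from 67 to 655 in Main2 (median 215), against medians of 13 and 18 in the other TCR-positive droplets and 1 and 2 in NK droplets. Every CD8 T droplet lay above those reference medians. The values used by the rule were as follows. TCR antibody counts had a lowest, median and highest value of 41, 65.5 and 171 in Main1 and of 45, 90 and 267 in Main2. CD4 antibody counts were 1, 10.5 and 19 in Main1 and 0, 7 and 21 in Main2. B220 antibody counts were 11, 21 and 35 in Main1 and 4, 18 and 41 in Main2, well under their limit. UMIs of both coreceptor genes were found in 40 droplets, of Cd8b1 alone in 14 and of Cd8a alone in 5. Cd8a (chr6:71373427-71379173, plus strand, GRCm38) had a median of 1 UMI and at most 5, and Cd8b1 (chr6:71322788-71337494, plus strand) a median of 4 and at most 12. Across the 59 droplets the CD8a antibody and the summed Cd8a and Cd8b1 UMIs had a Spearman correlation of 0.482, in counts that share each droplet's depth.

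Most TCR-positive droplets with a Cd8a or Cd8b1 UMI lay outside the gate. Of 378 such droplets, 319 (146 in Main1, 173 in Main2) were not selected. Among these, 211 had a CD4 antibody count of at least 23 with B220 under 100, with medians of 248 CD8a and 426 CD4 antibody counts and 4425 UMIs. Another 108 had a B220 count of at least 100, at a median of 11207.5 UMIs. The CD8 T droplets had a median of 2180 UMIs, so the unselected droplets carried more RNA and both coreceptor antibodies, and whether they hold more than 1 cell was not tested. By comparison, 387 droplets with CD4 counts of at least 23, B220 under 100 and no Cd8a or Cd8b1 UMI had a median CD8a antibody count of 6. At the limits of the rule, 6 droplets with TCR counts of 40 to 49 had a median CD8a antibody count of 131, and 6 just below it, at 30 to 39, had 166. The 8 droplets with CD4 counts of 17 to 22 had 243.5 and the 3 at 23 to 28 had 252. Members with 34 to 99 B220 counts numbered 3, with a CD8a median of 407, and no droplet that met the other limits lay just above 100. The 7 droplets with 1 coreceptor UMI had a CD8a median of 102, and the 7 that met the antibody limits with 0 UMIs had 22, with a range from 1 to 223.

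**Figure D1:**
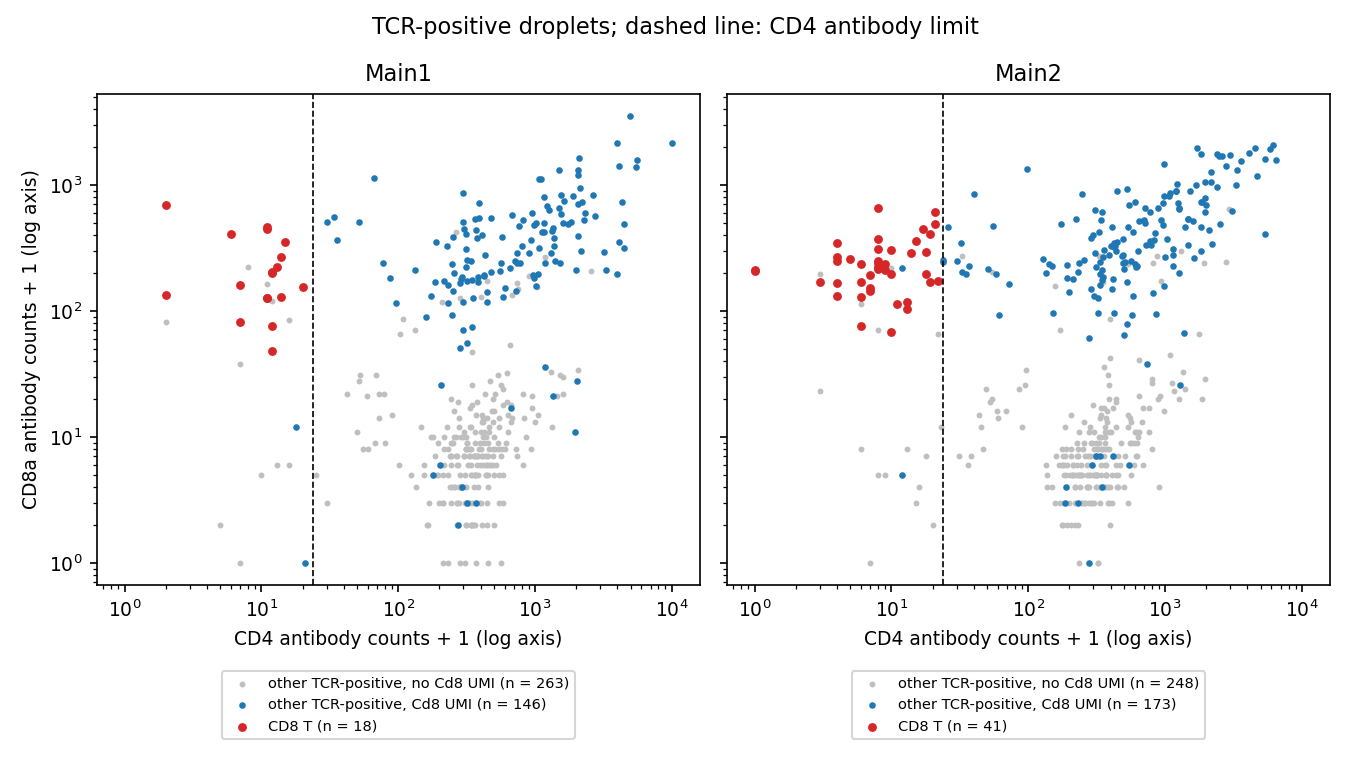
CD8a antibody counts against CD4 antibody counts (both plus 1, log axes) in each TCR-positive droplet, Main1 left and Main2 right. Red points are the 18 and 41 CD8 T droplets, blue points other droplets with a Cd8a or Cd8b1 UMI (146 and 173) and grey points those with none; the red points lie left of the dashed CD4 limit with CD8a counts of 47 or more.

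Depth and foreign RNA bear on all that follows. CD8 T droplets held 1181 to 13710 UMIs (46223 in all in Main1 and 124202 in Main2), against medians of 2937 in other TCR-positive, 1729 in NK and 1662 in B droplets. Median antibody totals were 2859, 5180, 1338 and 3228 in the same order. The libraries shared 14 cell barcodes, 0 of them among CD8 T droplets. Genes that define B cells, plasma cells, myeloid cells or dendritic cells made up at most 0.837% of UMIs in 56 droplets and 2% or more in 3, all in Main2. In the first of these the share was 5.03%, with 137 UMIs of the monocyte gene Lyz2 and a Ly6C antibody count of 3114. The second had 6.49%, with 313 UMIs of the class II invariant chain Cd74, 3 of the dendritic cell receptor Xcr1 and an MHCII antibody count of 1308. The third had 41.5%, with 949 UMIs of the antibody joining chain Jchain and 3240 of Igkc, beside 126 of Ccl5. Summed B cell markers were 3137 in Main1 when scaled to equal library totals (CPM) and 45901 in Main2, or 3773 in Main2 without these droplets, and the type shares and the 3 gene comparisons are also given without them.

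Droplets that met the rule made up 4.22% of TCR-positive droplets in Main1 (exact Clopper-Pearson 95% interval 2.52 to 6.58, 18 of 427) and 8.87% in Main2 (6.44 to 11.8, 41 of 462). They are not shares of all CD8 T cells, since 319 of 378 TCR-positive droplets with a coreceptor UMI lay outside the gate. These intervals cover counting error only, and the difference between the libraries has no replicate check. With the B220 limit applied to the denominator as well, the Main2 share was 12.0%.

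On the surface, CD8 T cells carried the T-lineage antigens. Median counts of CD90, the glycoprotein encoded by Thy1, were 1580.5 in Main1 and 1312 in Main2, against 1557 and 1944 on other TCR-positive and 50 and 57.5 on NK droplets. CD5, a receptor that dampens TCR signals, had medians of 172 and 136, against 453 and 402 on other TCR-positive and 5 and 4 on NK droplets. The TNF receptor family member CD27 stood at 64 and 42 on CD8 T cells and at 5 and 4 on NK cells. Conversely, NKp46 had medians of 0 and 1 on CD8 T cells against 7 and 9 on NK cells. CD44 had medians of 100.5 and 75, below the 204 and 240 of other TCR-positive droplets in both libraries. Ly6C, a surface protein of many central memory CD8 T cells, went the other way, with 186.5 and 73 against 46 and 45. Its range within CD8 T cells was wide, from 12 to 471 in Main1 and from 3 to 3114 in Main2. The panel was read in raw counts and other TCR-positive droplets had higher antibody totals, and the part of that total in these medians was not tested.

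**Figure D2:**
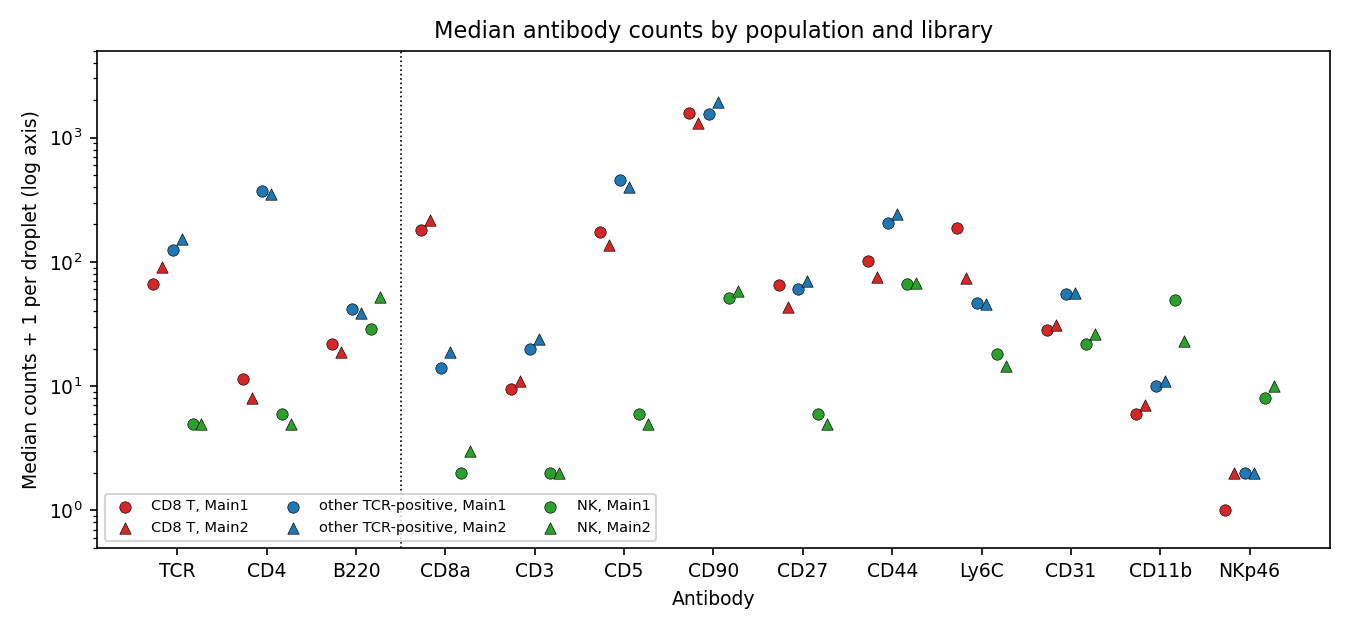
Median antibody counts plus 1 (log axis) for 13 antibodies in CD8 T (red), other TCR-positive (blue) and NK (green) droplets, circles for Main1 and triangles for Main2. The 3 antibodies left of the dotted line are those of the rule; CD8 T cells had the highest medians for CD8a (180.5 and 215) and Ly6C (186.5 and 73).

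By RNA, CD8 T droplets fell into naive-type and memory-type droplets. Each was typed by the larger of 2 UMI sums, over 8 naive genes (among them Ccr7, Lef1, Tcf7, Dapl1, Igfbp4, Satb1, Actn1) or over 12 memory genes (Ccl5, Nkg7, Il2rb, Cxcr3, Gzmk, Gzmm, Eomes, Tbx21, S100a6, Ly6c2, Ctsw, Klrd1). In Main1, 8 of 18 were naive-type (44.4%, exact 95% interval 21.5 to 69.2) and 9 memory-type (50%, 26.0 to 74.0). In Main2, 12 of 41 were naive-type (29.3%, 16.1 to 45.5) and 24 memory-type (58.5%, 42.1 to 73.7). Ties were left undetermined, 1 and 5 droplets. The intervals of the libraries overlap for either type. Over both libraries, 33.9% were naive-type (22.1 to 47.4) and 55.9% memory-type (42.4 to 68.8). These types are ranges of a score and not cell types: 13 of 59 droplets had sums within 1 UMI of each other. The memory share leans on Ccl5 and Nkg7. Of the largest memory sum, 189 UMIs, 165 were of Ccl5. Nkg7 was found in 51 of 59 droplets, with 7 UMIs in a naive-type one. A memory-type droplet of each library had 8 Nkg7 and 5 Dapl1 UMIs and none of Ccl5. When the lists were scored by their mean log-normalized levels, 41.5% of Main2 droplets were memory-type and 58.5% naive-type, and 44.4% of Main1 droplets were memory-type and 55.6% naive-type, so the order of the types turned in both libraries. Without the 3 droplets rich in foreign RNA, 2 of which were memory-type and 1 undetermined, the Main2 shares by UMI sums were 31.6% naive-type and 57.9% memory-type. Median depths were 2243 and 2081 UMIs in naive-type and 2366 and 2690 in memory-type droplets.

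**Figure D3:**
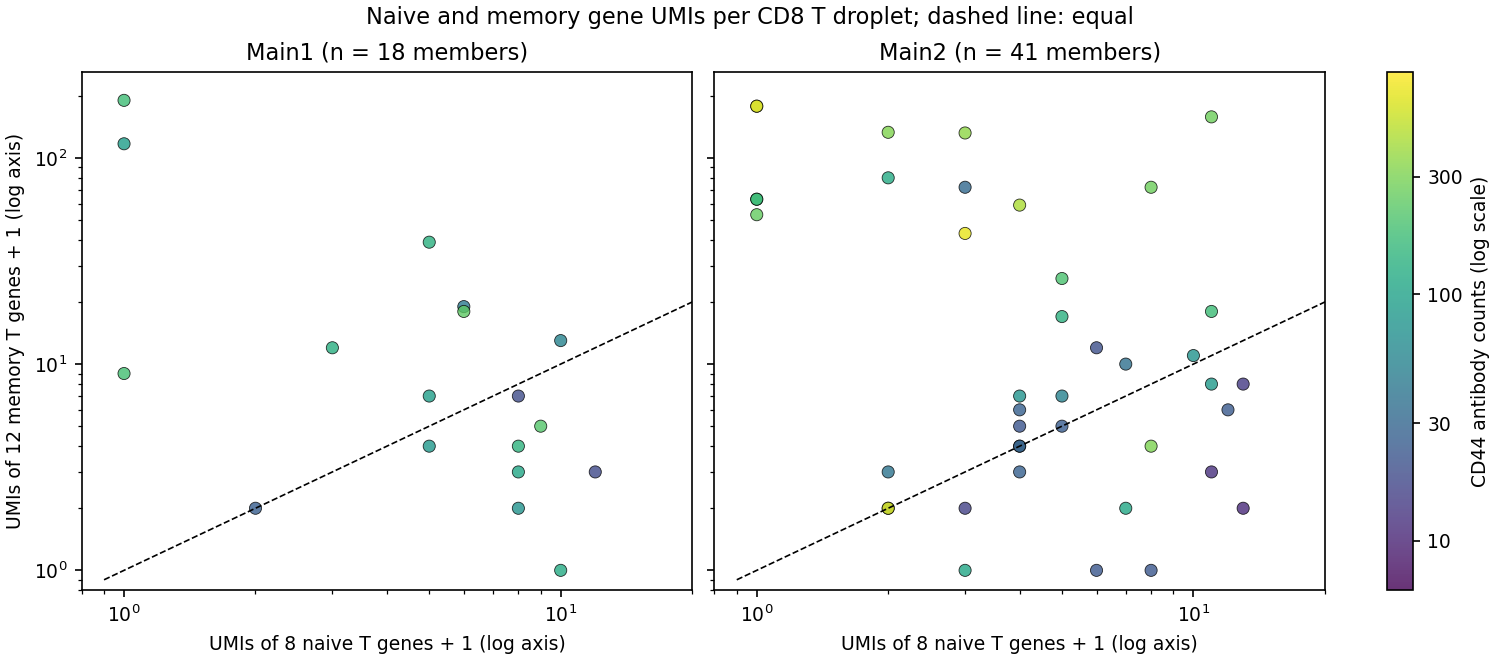
UMIs of 12 memory genes against UMIs of 8 naive genes in each CD8 T droplet (both plus 1, log axes), Main1 left (18 droplets) and Main2 right (41), coloured by CD44 antibody count; the dashed line marks equal sums. Memory-type droplets above the line reach 189 and 177 memory gene UMIs, while naive gene UMIs stay at 12 or below.

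Ccl5, Nkg7 and Dapl1 were the genes that marked these cells in an earlier look at the same data. Ccl5 (chr11:83525778-83530518, minus strand) encodes a chemokine that memory T and NK cells keep as ready mRNA. Its UMIs had a lowest, median and highest value of 0, 0.5 and 165 in Main1 and of 0, 0 and 159 in Main2. They were spread unevenly: 31 droplets (9 and 22) had 0, 12 had 1 to 24, and 16 (3 in Main1, 13 in Main2) had 25 or more. The last class made up 16.7% of CD8 T cells in Main1 (exact 95% interval 3.58 to 41.4) and 31.7% in Main2 (18.1 to 48.1), or 28.9% (15.4 to 45.9, 11 of 38) in Main2 without the 3 droplets rich in foreign RNA. Nkg7 (chr7:43437073-43438249, plus strand), which encodes a membrane protein of cytotoxic granules, was found more evenly. It had 0, 2 and 9 UMIs in Main1 and 0, 3 and 17 in Main2, with at least 1 in 51 of 59 droplets. Dapl1 (chr2:59484653-59505020, plus strand), a gene of naive T cells, had at most 5 UMIs in either library and at least 1 in 27 droplets. Only 1 of the 16 droplets with 25 or more Ccl5 UMIs had a UMI of Dapl1. The Spearman correlation of Ccl5 with Nkg7 was 0.624 and with Dapl1 -0.298 across the 59 droplets, which share 2 libraries, while that of Ccl5 with total UMIs was 0.215.

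Background from free RNA differed between these genes. At least 1 Ccl5 UMI was found in 47.5% of CD8 T (exact 95% interval 34.3 to 60.9), 41.9% of other TCR-positive, 80% of NK and 14.8% of B droplets, which should lack it. With every droplet thinned to 1000 UMIs, which left out no droplet, the shares were 42.4%, 28.7%, 76.1% and 8.27%. For Nkg7 the shares were 86.4% (75.02 to 93.96), 43.5%, 74.6% and 2.93%, and 69.5%, 22.5%, 71.7% and 1.45% when thinned. For Dapl1 they were 45.8% (32.7 to 59.2), 30.5%, 0.488% and 0.472%, and 35.6%, 13.6%, 0% and 0.302% when thinned. Median depths were the 2180, 2937, 1729 and 1662 UMIs given above. Dapl1 in CD8 T droplets was thus far above its background share, and single Ccl5 UMIs were nearer to theirs.

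The promoters of Nkg7 and Dapl1 are shown because one gene stands in the memory list and the other in the naive list. Sequences are from RefSeq (GRCm38.p6), 5' to 3' on the plus strand, which both genes use. Of the 5 marker genes, Cd8a, Nkg7 and Dapl1 had 1 entry each. Capitals mark a match to the RUNX motif TGTGGT on the opposite strand. The Nkg7 stretch is chr7:43436888-43437072 and ends before the first annotated exon, and the Dapl1 stretch is chr2:59484403-59484652.
Nkg7: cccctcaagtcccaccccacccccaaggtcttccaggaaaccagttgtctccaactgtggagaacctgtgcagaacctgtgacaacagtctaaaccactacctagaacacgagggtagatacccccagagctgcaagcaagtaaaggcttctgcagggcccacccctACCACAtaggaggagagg
Dapl1: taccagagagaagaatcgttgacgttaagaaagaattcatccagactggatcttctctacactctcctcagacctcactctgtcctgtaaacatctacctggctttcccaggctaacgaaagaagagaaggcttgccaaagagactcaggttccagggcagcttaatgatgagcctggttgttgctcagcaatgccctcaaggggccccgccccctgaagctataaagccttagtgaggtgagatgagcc
The motifs, RUNX (TGTGGT), T-box (GGTGTGA) and TCF/LEF (CTTTGA), were searched on both strands of the 250 bases before each start. No letters were shared by the matches found. Of 32536 promoter windows of that length 14.0%, 3.33% and 13.9% hold them. The Nkg7 window held 1 RUNX match, 83 bases before the RefSeq start, and 1 T-box match, 13 bases before it in the annotated exon not printed. The Dapl1 window held none of these letters. A match describes the letters in the window and no binding was measured.

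Against the other TCR-positive droplets, CD8 T cells were higher in Ccl5, Nkg7 and the granzyme gene Gzmb and lower in the helper T gene Izumo1r. Ccl5 and Nkg7 had marked these cells in the earlier look at the same data. The CD4 limit of the rule leaves CD4-positive droplets to the reference, which bears on Izumo1r. UMIs were summed per population and library and compared by edgeR's quasi-likelihood test with Benjamini-Hochberg adjustment over all genes tested. Genes passed at an adjusted p under 0.05, which 10 of 2579 did (0.388%), 7 of them higher (0.271%) and 3 lower (0.116%). An unadjusted p under 0.05 was found for 205 genes. In this fit edgeR gave the spread shared across genes 13.1 prior degrees of freedom, against 2 residual ones for each gene. The p-values thus rest largely on that shared spread. In 4 of the 10 genes, the immunoglobulin genes Igkv2-109, Iglv1 and Igha and the thioesterase gene Ppt1, 1 droplet gave at least 50% of the UMIs of the higher population. Sums do not tell more cells with a transcript from more transcript per cell, for which the shares above stand beside them.

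Ccl5 had 326 and 1039 UMIs in CD8 T cells (7053 and 8365 CPM in Main1 and Main2) against 2069 and 2345 CPM in other TCR-positive droplets. Both CD8 T sums lay above both others, by 1.81 on the log2 scale (SE 0.20; edgeR adjusted p = 0.000252). Nkg7 stood at 1147 and 1369 CPM against 400 and 446, a log2 fold of 1.60 (SE 0.25, edgeR adjusted p = 0.00561). These 2 genes were the members of the 9 tested memory genes that rose, 8 of 9 had a positive log2 fold, and the median was 0.94 against 0.00 over all genes tested. Since the lists were drawn up with results of these data known, such counts are a description. Ccl5, Nkg7 and Dapl1 had marked these cells earlier in the same data, so their p-values, here and below, are no independent support.

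Among the 8 tested cytotoxic granule genes, Nkg7 and Gzmb rose and the median log2 fold was 1.32. Gzmb (chr14:56258838-56262260, minus strand), which encodes the serine protease granzyme B, had 1 and 19 UMIs in CD8 T cells against 10 and 17 in other TCR-positive droplets. The log2 fold was 4.04 (SE 0.66, edgeR adjusted p = 0.0087), from 5 droplets, 1 of which gave 40.0% of the UMIs. Granzyme A (Gzma) had 2 and 98 UMIs, and its log2 fold of 2.00 did not pass (edgeR adjusted p = 0.132), with 3 droplets of Main2 at 10 UMIs or more and none of Main1. Of the 5 tested cell cycle genes, Stmn1 (chr4:134468320-134473843), whose product destabilises microtubules, rose by 1.56 on the log2 scale (8 and 27 UMIs against 107 and 147; SE 0.29, edgeR adjusted p = 0.0263), with 42.9% of its UMIs in 1 droplet.

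None of 8 naive genes passed against the other TCR-positive droplets, and their median log2 fold was -0.24. Dapl1 stood apart in value, at 606 and 354 CPM against 186 and 242, with a log2 fold of 1.04 (SE 0.27, edgeR adjusted p = 0.146). Igfbp4, a secreted growth factor binding protein gene, had a log2 fold of -1.39 (edgeR adjusted p = 0.0912). For the chemokine receptor gene Ccr7 the log2 fold was -0.09 and for Lef1 -0.14. None of 15 tested TCR and CD3 complex genes passed either (median -0.24), nor any of 27 other memory and effector genes (median 0.40), 10 resting and recirculation genes (median -0.14), 11 MHC class I genes (median -0.10) or 7 interferon response genes (median -0.41).

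Helper T genes were scarce in CD8 T cells. This is a description, since the CD4 limit of the rule leaves CD4-positive droplets to the reference. With 2 UMIs in CD8 T cells, Izumo1r passed the filter on low values through the reference. Izumo1r (chr9:14885814-14903949, minus strand), the gene of folate receptor 4, had 0 and 2 UMIs against 432 and 380, an 18.4-fold lower level (95% counting interval 5.07 to 152; edgeR adjusted p = 0.0047). Cd4, whose protein the rule used, had 0 UMIs against 462 and was at least 6.96-fold lower, taking 3 UMIs over both libraries as the floor. By the same floor the helper gene Maf was at least 4.75-fold lower, Tnfrsf4, which encodes OX40, at least 4.64-fold, and Cd40lg, the gene of CD40 ligand, at least 2.61-fold. The gamma delta constant gene Trdc was also at 0 and at least 1.67-fold lower. The 5 measured gamma delta and invariant T genes, Trdc among them, did not keep 1 direction. Summed, they stood at 130 CPM against 83.4 in Main1 and at 24.2 against 77.3 in Main2. The B cell transcription factor gene Ebf1 fell 8.50-fold (2.89 to 41.3), with 3 UMIs against 564 (edgeR adjusted p = 0.0309), and the reference, unlike the members, has no B220 limit.

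Further settings were added after these values were seen. Since the reference also holds droplets with CD8 transcripts, a narrower one was tried. Against the CD4-positive, B220-low droplets without a Cd8a or Cd8b1 UMI, 18 of 2576 genes passed (0.699%), 11 higher and 7 lower, and 6 of them were among the 10. Ccl5 was then higher by 2.99 (SE 0.22, edgeR adjusted p = 3.97e-07), Nkg7 by 2.56 (SE 0.26, adjusted p = 2.68e-05), Dapl1 by 1.51 (SE 0.29, adjusted p = 0.0150) and Eomes, a T-box factor gene of memory cells, by 4.18 (SE 0.80, adjusted p = 0.0146). The 3 droplets rich in foreign RNA were still included. Besides Gzmb, the other higher genes were Apoe (2.76), H2-Aa (1.60), H2-Ab1 (1.34), Irf8 (2.43), Ppt1 (2.19) and Igkv2-109 (8.89). Without the 3 droplets rich in foreign RNA, 11 of 2567 genes passed (0.429%), 5 of them among the 10, with Ccl5 at 1.88, Nkg7 at 1.73, Gzmb at 3.57 and Izumo1r at -3.86. Dapl1 passed there too, at 1.26 (edgeR adjusted p = 0.0298), as did lower Cd74 at -1.87. The call of Stmn1 was lost there (edgeR adjusted p = 0.312) and under 7 other alternatives, among them thinned droplets (edgeR adjusted p = 0.916) and DESeq2 (adjusted p = 0.0644). Under the listed alternatives the call of Ccl5 held in all that gave a test. That of Nkg7 was lost with a TCR limit of 80 (edgeR adjusted p = 0.128), and that of Gzmb with this limit, with a CD4 limit of 12, with thinned droplets and without the library term (adjusted p from 0.0878 to 0.379 by edgeR). The call of Izumo1r was lost without the library term (edgeR adjusted p = 0.0585) and with DESeq2 (adjusted p = 0.999), and that of Ebf1 under 10 alternatives, with adjusted p from 0.0503 with thinned droplets to 0.945 against B220-low droplets by edgeR.

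**Figure D4:**
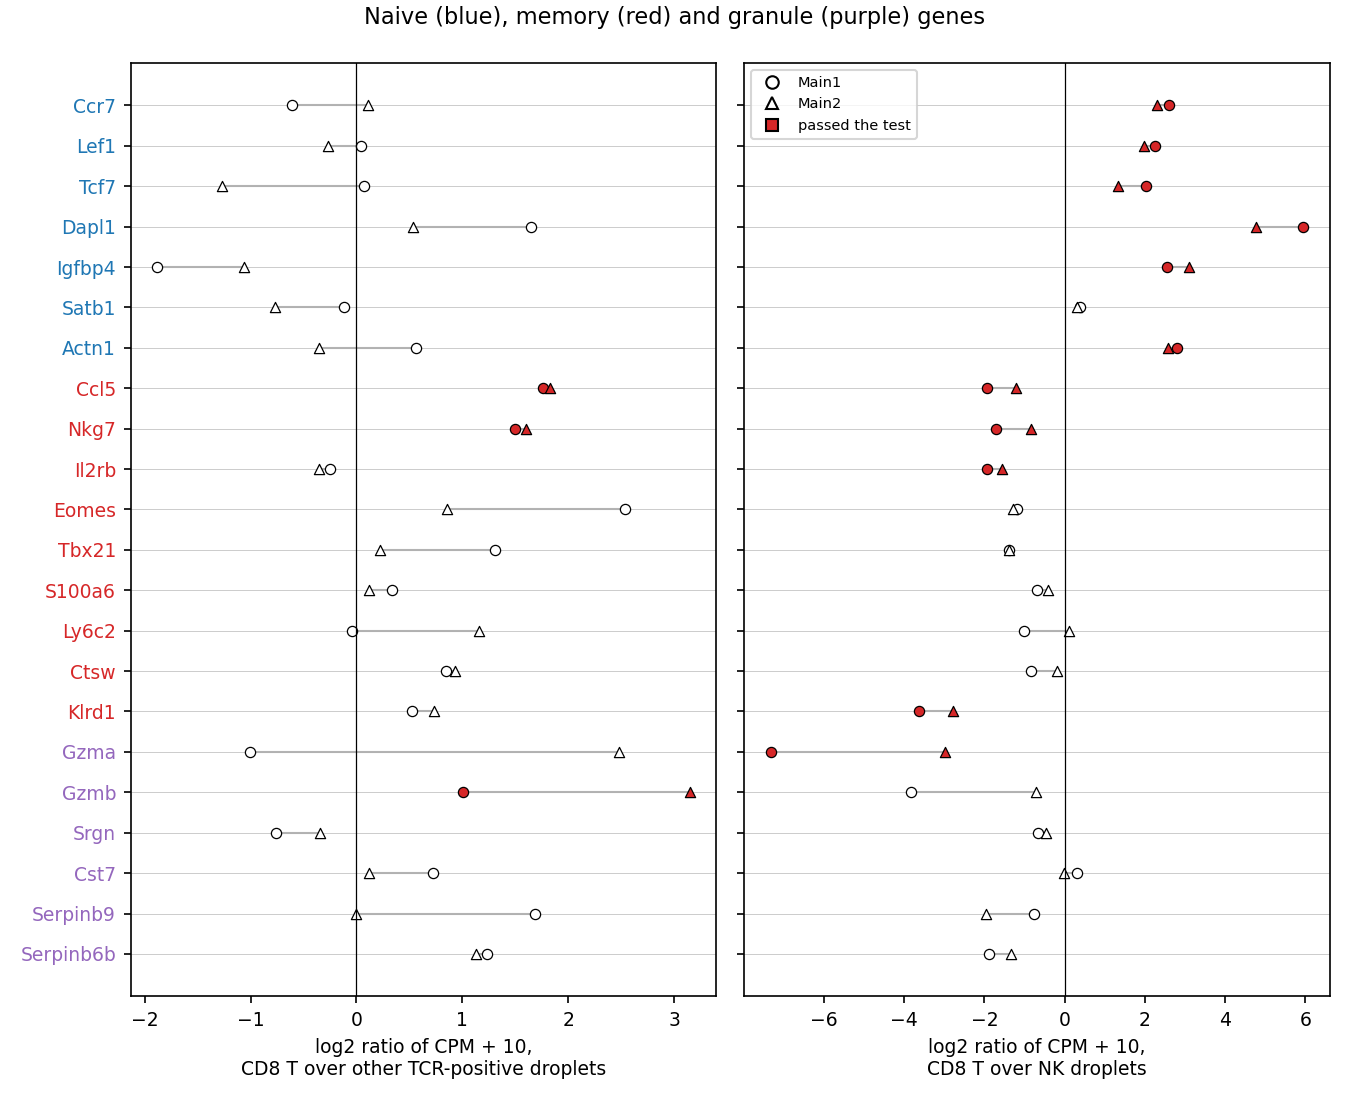
Log2 ratio of CPM plus 10 in CD8 T over other TCR-positive droplets (left) and over NK droplets (right), for naive (blue names; 7 of the 8 tested are drawn), memory (red) and granule (purple) genes, circles for Main1 and triangles for Main2, joined by a line. Red symbols passed edgeR's test in that comparison: 3 genes at left, all higher, and 11 at right, 6 naive genes higher and 5 memory or granule genes lower.

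NK cells, which also kill by granules but carry no TCR, differed from CD8 T cells in many more genes. The same edgeR fit called 153 of 2574 genes (5.94%), 83 higher in CD8 T cells (3.22%) and 70 lower (2.72%), and 148 of them had the same direction in both libraries. Without the 3 droplets rich in foreign RNA it called 223 of 2562 (8.7%), 119 higher and 104 lower. In 8 of the 153, 1 droplet gave at least 50% of the UMIs, and Jchain was one of these. TCR and CD3 genes tied to the TCR antibody by the rule were left untested. Of 11 others, 8 were higher with a median log2 fold of 2.36 over the list, among them Thy1 at 3.69 (SE 0.31, edgeR adjusted p = 5.71e-06), the adaptor gene Lat at 3.06 and the T-lineage factor gene Bcl11b at 4.55. These values are a description, since the TCR limit of the rule sets T droplets against droplets without a TCR. The filter on the mean level can also be passed through the T droplets alone. Themis, needed for T-cell selection in the thymus, had 19 UMIs against 2, a 25.6-fold higher level (6.16 to 226).

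Of the 8 tested naive genes 6 were higher in CD8 T than in NK cells. The list median was 2.68 against 0.01 over all genes tested, and it is a description, since the filter on the mean level over all populations can be passed through the T droplets alone. Dapl1 had 72 UMIs in CD8 T cells against 1 in NK cells, a 194-fold higher level (95% counting interval 33.7 to 7753), and Igfbp4 17 against 2, a 22.9-fold higher level (5.43 to 204). Ccr7 rose by 2.93 (SE 0.46, edgeR adjusted p = 0.000954), Lef1 by 2.43, Tcf7 by 2.04 and the actinin gene Actn1 by 3.61. The chromatin organiser gene Satb1, at 0.51, did not pass. Of 10 resting and recirculation genes 4 rose, among them the IL-7 receptor gene Il7r at 2.48, the egress receptor gene S1pr1 at 1.97 and Cd27 at 1.05. Klk8, a kallikrein protease gene, had 28 UMIs against 1, a 75.3-fold higher level (12.5 to 3079).

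Of the 9 tested memory genes 4 were lower in CD8 T than in NK cells, as were 2 of the 8 tested granule genes, against 2.72% of all genes tested. These counts are a description, since the filter on the mean level can be passed through the NK droplets alone. The memory list had 9 negative log2 folds and a median of -1.27. Ccl5 stood at 7053 and 8365 CPM against 27088 and 19352 in NK cells and fell by 1.41 (SE 0.20, edgeR adjusted p = 0.000371), so CD8 T cells lay between the other TCR-positive and the NK droplets in both libraries. Nkg7 fell by 1.110 (edgeR adjusted p = 0.0159), the IL-2 receptor beta chain gene Il2rb by 1.68 and the lectin receptor gene Klrd1 by 3.06. Gzma had 2 and 98 UMIs against 1321 and 1925 and fell by 3.92 (SE 0.50, edgeR adjusted p = 0.000172), whereas Gzmb at -1.30 did not pass (adjusted p = 0.114). With library totals as the only scaling and no normalization factors, the median of all genes moved to -0.17. In that setting 36 genes were called higher and 80 lower.

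NK receptor and signalling genes were scarce in CD8 T cells. Of 17 measured, 12 passed the filter on low values, several of them through the NK sums alone, so the 11 called lower are not read as a share. Klre1 had 0 UMIs in CD8 T cells and was at least 19.2-fold lower, Klrb1c (NK1.1) at least 18.6-fold and the protease gene Cma1 at least 14.6-fold. The adaptor genes Fcer1g and Tyrobp fell by 4.03 and 3.53. The inhibitory receptor gene Klrc1 had 3 UMIs against 168, a 20.8-fold lower level (7.004 to 102), and the chemokine gene Ccl3 had 2 against 133, a 24.7-fold lower level (6.71 to 206). Klra3 had 2 UMIs against 156, a 29-fold lower level (7.90 to 242), and Klra genes are near-identical copies among which reads could be split. Trdc was at 0 as well and at least 6.69-fold lower. All 11 tested MHC class I genes had positive values (median 0.57) and none passed. The B cell markers were lower in 6 of 12 cases, and the NK gate has no B220 limit.

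Within CD8 T cells, surface CD44 was used as a memory measure that the RNA types did not use. Droplets above their library's median CD44 count (108 to 234 in 9 droplets of Main1 and 85 to 710 in 20 of Main2) were set against those at or below it (18 to 93 in 9 droplets and 7 to 75 in 21). CD44-high droplets held 5 and 15 memory-type and 4 and 4 naive-type droplets, and CD44-low droplets 4 and 9 memory-type and 4 and 8 naive-type. Of the 16 droplets with 25 or more Ccl5 UMIs, 14 were CD44-high, 2 in Main1 and 12 in Main2, and 12 of 14 without the 3 droplets rich in foreign RNA. Their CD44 medians were 134 and 268, against 81 and 27 in droplets with no Ccl5 UMI. The Spearman correlation of CD44 with Ccl5 was 0.588 over 59 droplets, 0.293 in Main1 and 0.651 in Main2. CD44 also moved with total UMIs (0.431) and with the CD90 antibody (0.553), and CD44-high droplets had median depths of 2758 and 2875.5 UMIs against 2131 and 2076. The part of depth was not tested beyond the settings with thinned droplets and with CD44 as a share of antibody counts, given below.

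**Figure D5:**
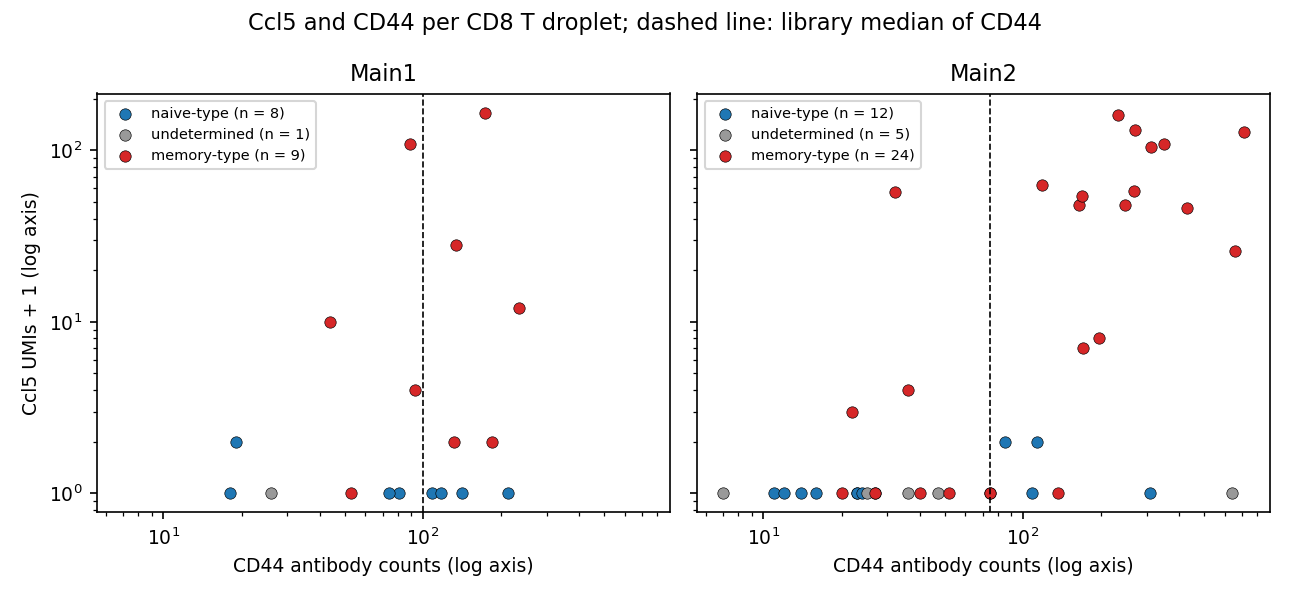
Ccl5 UMIs plus 1 against CD44 antibody counts (log axes) in each CD8 T droplet, Main1 left and Main2 right, coloured by type, with the library median of CD44 dashed. In Main2, 12 of the 13 droplets with 25 or more Ccl5 UMIs lie right of the dashed line, and in Main1 2 of 3 do.

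In the sums, 1 of 1009 genes passed between CD44-high and CD44-low droplets by edgeR (0.0991%), Jchain, with 98.5% of its UMIs in 1 droplet. DESeq2 also called 1, and 66 genes had an unadjusted edgeR p under 0.05. Ccl5 had 205 and 978 UMIs in CD44-high against 121 and 61 in CD44-low droplets, a log2 fold of 1.80 (SE 0.53, edgeR adjusted p = 0.263). Taken alone, Main1 gave 0.33 and Main2 3.17 on the log2 scale, so the size rests on Main2. The galectin gene Lgals1 had 23 and 114 against 6 and 15 UMIs (1.99, adjusted p = 0.0781) and the calcium-binding protein gene S100a6 had 14 and 44 against 4 and 1 (2.83, adjusted p = 0.174). Gzma had 1 and 98 UMIs against 1 and 0, a 60.3-fold ratio (95% counting interval 10.6 to 2406) carried by Main2 alone (edgeR adjusted p = 0.0526). Gzmb had 20 UMIs against 0 and was at least 4.06-fold higher. All 5 tested memory genes had positive values, with a median of 0.91 against 0.05 over all genes tested. Ccl5 and S100a6 passed under 9 of the other settings each. With CD44 as a share of antibody counts, their log2 folds were 6.73 and 7.83. Another example is the setting with no normalization factors beyond the library totals, at 1.73 and 2.75 (edgeR adjusted p = 3.96e-05 and 0.000772), where 25 genes were called. In 7 of the other settings, this one included, the prior degrees of freedom that edgeR gives to the spread shared across genes were infinite, so the spread of a gene between the libraries does not enter its p.

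Naive genes leaned the other way. Dapl1 had 11 and 17 UMIs in CD44-high against 17 and 27 in CD44-low droplets (log2 fold -1.23, edgeR adjusted p = 0.326) and Ccr7 had 2 and 7 against 4 and 20 (-1.99, adjusted p = 0.263). Ccr7 passed as lower with no normalization factors (-2.09, edgeR adjusted p = 0.0488), with upper quartile factors and with 1 CD44 median over both libraries (-2.22, edgeR adjusted p = 0.0169), all with infinite prior degrees of freedom. Lef1 was among the 9 genes called with thinned droplets. Of the 7 tested naive genes 6 had negative values, with a median of -1.23, and Tcf7 was the exception at 0.65. The 3 droplets rich in foreign RNA, all CD44-high, were then left out and the CD44 medians taken anew. Main2 droplets at the former median of 75 thereby became CD44-high. In this setting 5 of 826 genes passed by edgeR (0.605%). These were Ccl5 at 1.83 (SE 0.17, adjusted p = 4.01e-22; Main1, which held none of the 3 droplets, stays at 0.33), Gzma at 5.15, Lgals1 at 1.94, S100a6 at 2.97 and the interferon-inducible RNA AW112010 at 1.09, all higher in CD44-high droplets. In this setting the prior degrees of freedom, the weight that edgeR gives to the spread shared across genes, were 580 against 9.41 with all droplets. With 1 residual degree of freedom the small p-values rest on that shared spread.

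Some memory-type droplets did not follow the Ccl5 pattern. There were 8 memory-type droplets with no Ccl5 UMI, 1 in Main1 and 7 in Main2, and 6 of them had UMIs of Ly6c2, a gene whose reads may be shared with its near-identical neighbour Ly6c1. The median CD44 count of the 8 was 52.5, against 132 and 166.5 over all memory-type droplets. Most of the 8 lay near the cut between the types. Their memory against naive sums were 2 and 1, 10 and 9, 5 and 3, 6 and 4, 12 and 9, and 6 and 3 UMIs. The rest had 11 against 5 and 16 against 4, so the 8 are not read as a group. Ly6c2 was found in 29 of 59 CD8 T droplets, with up to 3 UMIs in Main1 and 30 in Main2, and its Spearman correlation with the Ly6C antibody was 0.679. The Ly6C antibody itself had a correlation of 0.0948 with Ccl5. By type, Ly6C medians were 205.5 and 49.5 in naive-type and 182 and 90 in memory-type droplets, so the types overlapped in Ly6C and their order differed between the libraries.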

How the data were processed

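The deposited tables hold, per the file headers, 1 count of UMIs per gene and droplet and 1 count of tags for each of 30 antibodies, whole numbers that the authors had not normalized. Cell Ranger 3.0.2, bcl2fastq and build mm10 stand in the submitters' processing notes, which name no counter for the antibody tags. Droplet names begin with m1 or m2, read as Main1 and Main2. Every gene had UMIs in at least 15 droplets. Of 11713 gene identifiers 11693 matched GENCODE vM21. No droplet was removed, and no doublet caller was run.

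The members, gates, gene lists and tests were chosen with earlier results of these data known. UMIs were summed per population and library (6 sums) or per CD44 class and library (4 sums). Genes with a mean of at least 50 CPM and 20 UMIs over the sums were tested with edgeR 4.0.16 (R 4.3.3): TMM factors, the library as a term, quasi-likelihood F test, Benjamini-Hochberg adjustment, 2 and 1 residual degrees of freedom. Of those called, the 15 largest folds in each direction, alike in both libraries and under 50% from 1 droplet, and members of the lists were named. A gene of the naive list enters the list counts and is not reported by itself here. The test was also run on simulated counts. These had the same spread for every gene and no genes carried by 1 droplet, so that run does not cover such genes. DESeq2 1.42.0 was an alternative. Shares have exact 95% intervals (scipy 1.17.1, Python 3.11.15), and thinning drew 1000 UMIs per droplet (seed 1). The floor for a gene at 0 was 3 UMIs over a population. Counting intervals and floors cover counting error only.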

Additional observations from a re-analysis of the deposited data

How the results depend on the processing

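Droplets that met the rule made up 2.33% of TCR-positive droplets in Main1 with a TCR limit of 80 and 6.28% in Main2 with a CD4 limit of 12, and 12.0% in Main2 with the B220 limit in the denominator. Mean log-normalized levels gave 41.5% memory-type and 58.5% naive-type droplets in Main2, and 44.4% and 55.6% in Main1. Against other TCR-positive droplets, where 10 genes passed, the number called was 5 with DESeq2, 46 without the CPM filter, 3 without the library term, 3 with a TCR limit of 80, 20 with a CD4 limit of 12, 17 with thinned droplets, 18 against B220-low droplets, 24 against CD4 T droplets and 18 against those without CD8 UMIs. Against NK droplets, where 153 passed, it was 76 with a filter of 100 CPM, 76 with a TCR limit of 80 and 261 with every population held under 2% other-lineage UMIs. Between CD44 classes, where 1 gene passed, it was 25 with upper quartile factors, 25 with no factors, 19 without the filter, 16 at 100 CPM, 9 without the library term, 19 by tertiles, 26 by CD44 as a share of antibody counts, 27 by a median over both libraries, 9 with thinned droplets and 5 without the 3 droplets rich in foreign RNA. The log2 ratio of Nkg7 between CD44 classes was -0.047 in Main1 alone and 0.12 in Main2 alone, the first opposite to the 0.14 of the fit; the cause was not tested.

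Of the recomputed values for single genes, 454 kept direction and call against NK droplets and 22 lost the call. Against other TCR-positive droplets 100 kept both, 25 lost the call and 5 gained it, and between CD44 classes 33 kept both, 18 gained a call and 1 turned. With 1 library left out no residual degree of freedom remains, so each library alone gives a ratio with no test. No paired analysis was possible because the deposited tables do not separate the 4 samples of a group, so their replicate numbers could not serve; the fits do compare populations within a library, through the library term. Depth limits rare genes most: 59 droplets with a median of 2180 UMIs leave low transcripts such as Eomes at 11 UMIs in all.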

Other observations

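Few CD8 T droplets carried strong effector transcripts. Gzma reached 10 UMIs or more in 3 droplets, all in Main2, at a median CD44 count of 312, and Gzmb was found in 5 droplets, 1 in Main1 and 4 in Main2. The droplet with 41.5% foreign RNA was among both, with 41 Gzma and 8 Gzmb UMIs. Without it 2 and 4 droplets remain. Checkpoint and exhaustion genes were too low to be tested in any comparison. No hypothesis was tested beyond the comparisons above.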
